A study of Macaca mulatta with 4 samples.

Results

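Ion channel and mechanosensitive channel genes were examined in RF/6A, an established line grown from choroid and retina of the rhesus macaque. The members were chosen by symbol alone, as every named gene of 11 families: potassium channel genes (KCN), calcium channel alpha genes (CACNA), sodium channel genes (SCN), transient receptor potential genes (TRPA, TRPC, TRPM and TRPV), the polycystins PKD1 and PKD2, chloride channel genes (CLCN), anoctamins (ANO), LRRC8 genes, TMEM63 genes, bestrophins (BEST) and PIEZO genes. The rule found 141 genes among 14654 rows with a symbol, in a table of 21314 rows. A further 36 rhesus symbols that fit the rule, PIEZO2 and the inward rectifier KCNJ2 among them, had no named row and were not measured here.

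All 4 libraries came from the same line, bought as 1 lot, untreated and titled as static. The medium was Dulbecco's Modified Eagle Media with heat-inactivated fetal bovine serum and antibiotics. There is neither a comparison line nor a treatment, so each value below is a level with its spread over 4 libraries. Nothing in the labels says whether the libraries came from separate cultures, and the SDs may therefore be technical.

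Ion channels are membrane proteins that let ions cross when a voltage, a ligand, calcium or membrane tension opens them. Most are built from pore-forming subunits, which make the conducting path, and auxiliary subunits, which set gating and delivery to the surface. Voltage-gated sodium and calcium channels carry the action potentials of nerve and muscle, whereas non-excitable cells rely on potassium channels, volume-regulated anion channels, TRP channels and channels of endosomes and lysosomes. In blood vessels, PIEZO1, TRPV4 and the polycystins are studied as sensors of flow, and calcium-activated and inwardly rectifying potassium channels set the membrane potential of the endothelium.

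Library totals lay between 20366946 and 20550610.0 estimated counts, and levels are given as CPM, the share of a gene in the counts of its library, after TMM scaling and in the order of libraries 1 to 4. No gene length enters these values, and long genes gather more counts, so levels are compared between libraries for 1 gene and not between genes. Of the 55 members with a mean of at least 1 CPM, 18 have a span that overlaps a coding gene, 13 of them a named one, and whether the counting used strand is not given in the sources used here. Library 2 stood apart in composition: pairs without it had a chi-square per degree of freedom of 12.3 to 19.3 and pairs with it 418 to 495, and ribosomal protein genes took 14.9% of its counts against 6.04% to 6.62%. The labelled cell type was checked against marker genes. Of 8 endothelial markers 1 (PECAM1) reached 1 CPM in every library, and KDR, ERG and CDH5 reached it in some libraries only. VWF, NOS3, TEK and TIE1 stayed below it in all 4, while all 8 fibroblast and mesenchymal markers reached it in every library. Of 6 smooth muscle markers 5 reached it and CNN1 did not, with a summed level of 838 CPM in library 2 and 281 to 338 CPM in the others. Most of that sum was TAGLN, with a mean of 392 CPM. The median of the 5 means was 8.20 CPM, and the lowest, MYH11, was 1.62 CPM. Of 5 measured retinal pigment epithelium markers 2 reached 1 CPM in every library (PMEL and RPE65). MITF missed it in library 2 only, RLBP1 measured 0.0267 ± 0.0316 CPM (SD, n = 4) and TYR had no count. Among all named rows, 64.2% reached 1 CPM in every library. Summed levels ran over the libraries from 5.12 to 8.31 CPM for the endothelial markers and from 40467 to 45965 CPM for the fibroblast markers. No gene length enters these sums either, so they are not a comparison between the lists.

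The threshold for an expressed gene was 1 CPM in each of the 4 libraries. Of the 141 channel genes 47 met it (33.3%), against 64.2% of all named rows and 64.3% of all rows with a count. A further 15 members reached 1 CPM in some libraries only, 45 had counts but stayed below 1 CPM throughout, and 34 (24.1%) had no count, against 11.8% of named rows. A total of 0 counts over the 4 libraries has an exact 95% Poisson upper limit of 0.0447 CPM. This limit covers counting error only. Together the members took between 0.188% and 0.194% of the counts of libraries 1 and 3, 0.171% of library 4 and 0.0934% of library 2.

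The share differed among families, with no test between them. All 5 LRRC8 genes, both polycystins and PIEZO1 were expressed. So were 2 of 3 TMEM63 genes, 4 of 7 CLCN genes, 4 of 9 anoctamins, 6 of 21 TRP genes and 18 of 66 KCN genes. Calcium and sodium channel genes had the fewest, with 2 of 14 CACNA and 2 of 11 SCN members, and none of the 10 CACNA1 pore genes reached 1 CPM in all libraries. Outside the KCN, CACNA and SCN families 25 of 50 members were expressed, against 14 of 75 pore-forming and 8 of 16 auxiliary members inside them.

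**Figure D1:**
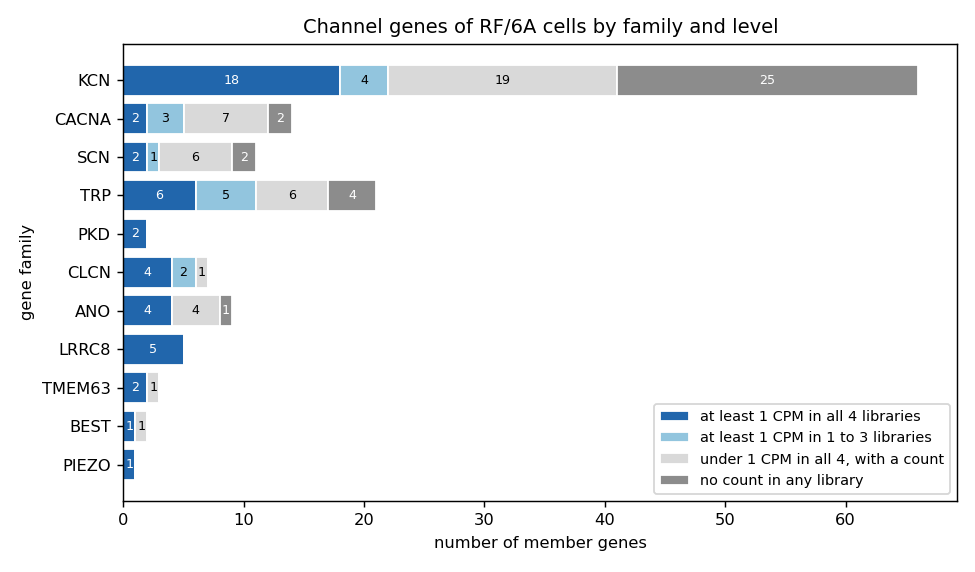
Bars count the member genes of each of the 11 families (x axis, number of genes), split by whether a gene reached 1 CPM in all 4 libraries, in 1 to 3 libraries, in none despite a count, or had no count. All 5 LRRC8 genes fall in the first class, while 25 of the 66 KCN genes have no count.

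PIEZO1, a large stretch-gated cation channel that senses membrane tension and flow, was above the threshold in every library. It measured 60.7, 49.6, 62.4 and 62.6 CPM in libraries 1 to 4, a mean of 58.8 ± 6.22 CPM (SD, n = 4). Under TMM, libraries 1, 3 and 4 lay within 2 CPM of each other, and library 2 was 1.25-fold below their mean. With plain CPM library 2 was again the lowest, and the spread was wider, at 60.0 ± 13.8 CPM (SD, n = 4). The size of the difference therefore depends on the scaling. In bulk RNA, fewer cells with a transcript and less of it per cell cannot be told apart. By the gap test, which asks whether 1 library lies far from the others compared with the whole range, library 2 stood apart for PIEZO1. Its gene span overlaps that of CTU2 in the RefSeq annotation of T2T-MMU8v2.0.

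TMEM63 genes encode tension-activated channels related to the OSCA channels of plants. TMEM63B gave 17.8, 31.6, 16.4 and 19.8 CPM in libraries 1 to 4 (21.4 ± 6.98 CPM, SD, n = 4), and library 2 was the highest. TMEM63A measured 8.598, 7.53, 4.94 and 9.86 CPM, with library 2 inside the range of the others. TMEM63C stayed below 1 CPM in every library, at 0.283 ± 0.128 CPM, and its exact 95% Poisson limits over the 4 libraries were 0.186 and 0.433 CPM. The spans of TMEM63B and TMEM63A overlap those of MRPL14 and EPHX1. Another tension-gated channel, the two-pore potassium channel KCNK2 (TREK-1), measured 16.2, 4.56, 14.1 and 14.9 CPM, with library 2 below the other 3, and its relatives KCNK4 and KCNK10 were at 0.161 ± 0.154 CPM and without a count. Of the 7 measured stretch-gated channel genes, 4 were expressed (57.1%), near the 64.2% of all named rows.

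Among TRP genes, which encode cation channels opened by lipids, calcium, irritants or temperature, 6 of 21 were expressed, TRPM7 with the most counts. TRPM7, a magnesium- and calcium-permeable channel fused to a protein kinase, measured 182, 12.2, 184 and 153 CPM in libraries 1 to 4. Libraries 1, 3 and 4 averaged 173 ± 17.4 CPM (SD, n = 3) and library 2 was 14.1-fold lower. The related channel kinase TRPM6 was also lowest in library 2 at 1.501, 0.679, 2.11 and 1.49 CPM and missed the threshold in library 2. TRPM4, a calcium-activated channel for monovalent ions, did not separate library 2, with 14.6, 11.7, 7.95 and 9.86 CPM.

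TRPA1, the receptor of pungent irritants in sensory neurons that fibroblasts can also carry, measured 21.2, 12.4, 24.5 and 21.5 CPM (19.9 ± 5.23 CPM, SD, n = 4). Library 2 was the lowest, and the other libraries lay within 4 CPM of each other. Of the receptor-operated calcium channels, TRPC1 measured 9.83, 2.04, 7.68 and 8.9997 CPM and was 4.34-fold lower in library 2. TRPC6 measured 1.18, 0.493, 1.39 and 1.22 CPM and was kept from the expressed set by library 2 alone. TRPC4 and TRPC7 had counts in 1 library each, 3 in library 3 for TRPC4 and 2 in library 4 for TRPC7, and TRPC5 had none.

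Of the vanilloid TRP genes only TRPV2 was expressed. It measured 2.41, 6.79, 5.12 and 2.98 CPM, with library 2 the highest under TMM and not under plain CPM. TRPV4, a channel opened by cell swelling and studied as a flow sensor of the endothelium, measured 0.773, 1.604, 1.26 and 1.31 CPM, or 17, 26, 28 and 29 counts, and only library 1 fell below 1 CPM. The heat- and capsaicin-gated TRPV1 measured 0.1698 ± 0.1304 CPM (SD, n = 4), and TRPV3 and the epithelial calcium uptake channels TRPV5 and TRPV6 had no count. Of the remaining TRPM genes, TRPM1, which marks melanocytes and retinal bipolar cells, measured 0.728, 1.604, 0.854 and 0.769 CPM, and the ADP-ribose-gated TRPM2 0.182, 2.16, 0.314 and 0.904 CPM. Both passed 1 CPM in library 2 only. TRPM3 (0.3095 ± 0.183 CPM), TRPM5 (0.0535 ± 0.0512 CPM) and the cold receptor TRPM8 (0.0791 ± 0.0569 CPM) stayed below 1 CPM throughout.

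The polycystins, receptor-like PKD1 and its channel partner PKD2, work together in the primary cilium. PKD2 measured 83.8, 41.9, 94.7 and 79.9 CPM in libraries 1 to 4 (75.1 ± 22.97 CPM, SD, n = 4), with library 2 lying 2.05-fold below the mean of the others. PKD1 measured 14.8, 1.73, 14.7 and 14.4 CPM. Its 3 upper libraries lay within 0.5 CPM of each other (14.6 ± 0.2205 CPM, SD, n = 3), and library 2 was 8.47-fold lower, and the gap test set it apart. The span of PKD1 overlaps that of TSC2.

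LRRC8 proteins form the volume-regulated anion channel, in which LRRC8A is the obligatory subunit and LRRC8B to LRRC8E are its partners. LRRC8A was among the steadiest members under TMM, at 80.8, 89.3, 91.2 and 93.6 CPM (88.7 ± 5.58 CPM, SD, n = 4). LRRC8D measured 95.4, 33.4, 104 and 108 CPM and LRRC8C 44.3, 19.9, 45.96 and 41.2 CPM, and for both library 2 was the lowest. LRRC8E gave 12.5, 7.34, 12.2 and 13.02 CPM and LRRC8B 7.83, 1.85, 11.4 and 11.6 CPM. LRRC8A was the only LRRC8 gene whose library 2 value fell inside the range of the other libraries under TMM, and under plain CPM it too was lowest in library 2. The 4 partners were 1.71-fold (LRRC8E), 2.21-fold (LRRC8C), 3.07-fold (LRRC8D) and 5.55-fold (LRRC8B) lower in library 2 than the mean of the other 3. The spans of LRRC8A and LRRC8E overlap those of KYAT1 and PRR36.

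Anoctamins are calcium-activated chloride channels or lipid scramblases. ANO6 (TMEM16F), a scramblase that exposes phosphatidylserine and also conducts ions, collected the most counts of any member, at 416, 113, 413 and 330.05 CPM in libraries 1 to 4 (318 ± 142 CPM, SD, n = 4). Library 2 was 3.43-fold below the mean of the others. ANO1, the classical calcium-activated chloride channel of epithelium and smooth muscle, had no count in any library. ANO10 was even under TMM, at 49.3, 51.6, 56.9 and 55.7 CPM. ANO5, known from muscle and bone disease, measured 30.3, 11.8, 31.2 and 28.1 CPM, and ANO8 5.32, 1.91, 4.54 and 3.799 CPM, both lowest in library 2. The other 4 measured anoctamins stayed below 1 CPM, from 0.0382 CPM for ANO7 to 0.608 CPM for ANO9.

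BEST1, the calcium-activated anion channel of the retinal pigment epithelium, measured 15.1, 1.48, 29.8 and 15.2 CPM, or 331, 24, 663 and 337 counts, in libraries 1 to 4. Library 3 held about double the level of libraries 1 and 4, and library 2 was 13.5-fold below the mean of the 3. BEST3 stayed below 1 CPM, at 0.117 ± 0.137 CPM (SD, n = 4). Beside BEST1, the pigment epithelium markers TYR and RLBP1 were at or near 0, RPE65 measured 1.18, 1.23, 1.35 and 2.04 CPM and PMEL 34.9, 45.8, 31.5 and 33.8 CPM, and their part in the BEST1 level was not tested.

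CLCN genes encode chloride channels of the surface and chloride-proton exchangers of endosomes and lysosomes. The exchanger genes CLCN3, CLCN6 and CLCN7 were expressed, and CLCN4 and CLCN5 missed 1 CPM in library 2 only. CLCN3 measured 87.03, 18.6, 85.9 and 64.9 CPM (64.1 ± 32.03 CPM, SD, n = 4) and was 4.27-fold lower in library 2. CLCN7, the lysosomal exchanger, held 33.8, 42.5, 31.5 and 35.004 CPM. Library 2 was the highest for CLCN7 under TMM and the lowest under plain CPM, so its direction there depends on the scaling. CLCN6 measured 25.5, 12.3, 42.6 and 22.7 CPM, and its libraries 1, 3 and 4 also spread widely. CLCN4 measured 4.37, 0.432, 3.06 and 2.62 CPM and CLCN5 3.64, 0.7402, 3.95 and 2.53 CPM. Of the surface channels, the broadly expressed CLCN2 measured 8.92, 13.6, 7.28 and 7.24 CPM and the skeletal muscle channel CLCN1 had 1 count in each of libraries 2 and 3 and none in the others. The spans of CLCN7 and CLCN2 overlap those of PTX4 and FAM131A.

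**Figure D2:**
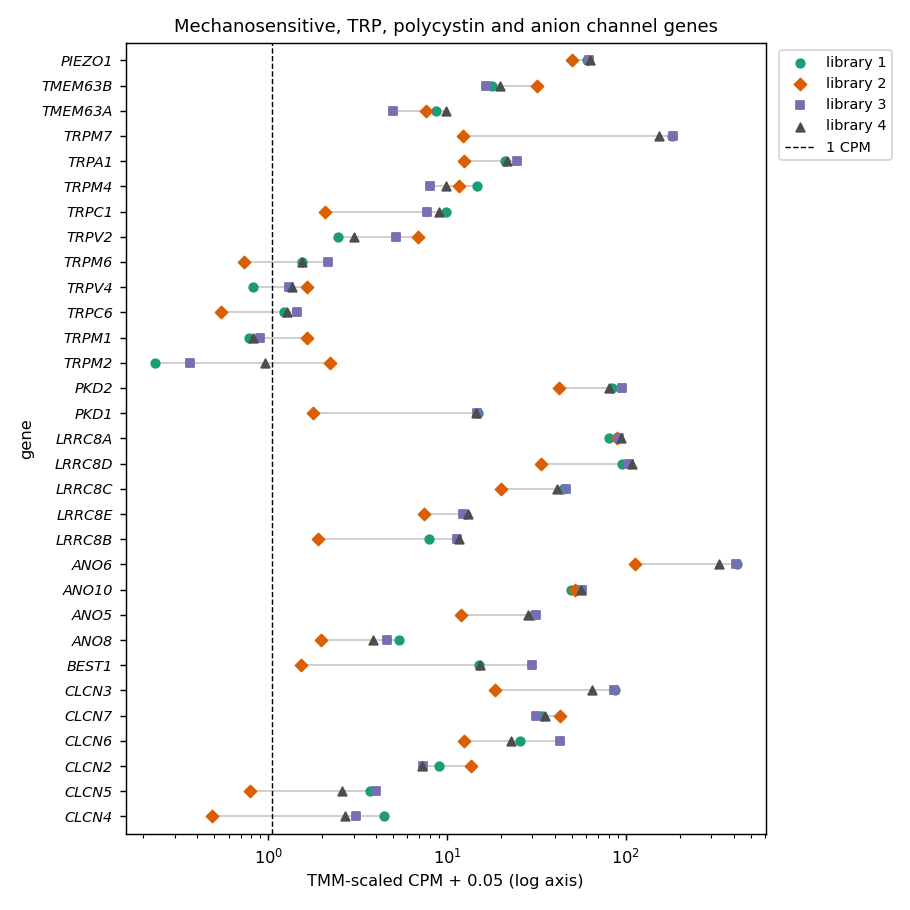
Points give single libraries, in TMM-scaled CPM + 0.05 on a log x axis, for the reported mechanosensitive, TRP, polycystin and anion channel genes that reached 1 CPM in at least 1 library, and grey lines span the 4 libraries. Library 2 lies left of the others for TRPM7, PKD1 and BEST1, and all 4 libraries nearly coincide for LRRC8A and ANO10.

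Voltage-gated calcium channel pores were scarce. The L-type pore CACNA1C, which carries calcium into heart and smooth muscle, measured 0.864, 0.0617, 1.17 and 0.497 CPM, or 19, 1, 26 and 11 counts, and passed 1 CPM in library 3 only. Its neuroendocrine and retinal relative CACNA1D measured 0.955, 0.0617, 0.809 and 0.769 CPM and passed in none. CACNA1A, the P/Q-type pore of nerve terminals, measured 1.14, 1.79, 0.314 and 0.362 CPM, and the T-type pores CACNA1G and CACNA1H 0.0455, 0.123, 1.03 and 0.136 CPM and 0.409, 0.7402, 0.539 and 0.452 CPM. The 1.03 CPM of CACNA1G in library 3 rests on 23 counts, against 1, 2 and 3 in the others. CACNA1E and the skeletal muscle pore CACNA1S had no count, and CACNA1B, CACNA1F and CACNA1I were below 0.1 CPM in mean.

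The expressed CACNA members were both auxiliary subunits of the alpha-2-delta type. CACNA2D1, a surface protein that binds gabapentinoid drugs, measured 20.6, 3.02, 17.2 and 12.3 CPM (13.3 ± 7.63 CPM, SD, n = 4), and library 2 was 5.53-fold below the mean of the others. CACNA2D4, known from photoreceptors, measured 7.51, 3.58, 6.11 and 6.603 CPM, and the span of its gene overlaps that of LRTM2. CACNA2D2 and CACNA2D3 stayed below 1 CPM, at 0.5399 ± 0.307 CPM and 0.314 ± 0.347 CPM.

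Of the sodium channel genes, SCN2A, a brain sodium pore, was the only pore gene of 9 to be expressed, at 7.64, 8.64, 7.64 and 5.47 CPM, or 168, 140, 170 and 121 counts. Library 4 was the lowest, and library 2 the highest under TMM but not under plain CPM. Of the other pores, SCN3A measured 0.521 ± 0.251 CPM, SCN8A 0.342 ± 0.279 CPM and the skeletal muscle SCN4A 0.0792 ± 0.0934 CPM, and the sensory neuron pores SCN10A and SCN11A had no count. SCN1A measured 0.182, 0, 0.225 and 1.09 CPM and passed 1 CPM in library 4 only, on 24 counts. Of 8 neuronal markers 4 were expressed (50%, against 64.2% of all named rows). The neuronal marker genes RBFOX3 and ELAVL4 measured 0.0535 ± 0.0512 CPM and 0, while SYT1 and SNAP25 measured 55.1 ± 20.3 CPM and 8.28 ± 1.29 CPM; their part in the sodium channel levels was not tested.

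Potassium channel genes were the largest family, and auxiliary or modifying subunits took its upper ranks by count. KCNAB3, a cytoplasmic beta subunit of Kv channels, measured 93.5, 295, 84.6 and 98.8 CPM (143 ± 101 CPM, SD, n = 4). Libraries 1, 3 and 4 averaged 92.3 ± 7.14 CPM (SD, n = 3), and library 2 was 3.19-fold higher. KCNMB4, a beta subunit of the large-conductance calcium-activated channel, measured 53.8, 91.2, 52.4 and 59.5 CPM, with library 2 again the highest. KCNS3, a silent Kv subunit that works only in complexes with other pores, measured 31.3, 54.8, 33.96 and 38.4 CPM. These 3 were highest in library 2 under each of the 3 scalings tried.

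Pore genes of the Kv families were expressed in 7 of 30 cases (23.3%, against 64.2% of all named rows), the silent subunits KCNS3 and KCNG1 included. KCNQ5, a pore of the M-current, measured 51.8, 2.96, 30.7 and 8.095 CPM, or 1139, 48, 684 and 179 counts. No library stood apart by the gap test, yet libraries 1, 3 and 4 alone spanned more than 6-fold, and the mean fell from 23.4 to 13.6 CPM without library 1. KCNH1 (EAG1), a pore of brain and of many tumour lines, measured 29.8, 1.42, 31.2 and 26.5 CPM. Libraries 1, 3 and 4 averaged 29.2 ± 2.39 CPM (SD, n = 3), and library 2, with 23 counts, was 20.6-fold lower. KCNH3 measured 5.28, 8.94, 4.49 and 5.698 CPM, KCND1 1.96, 1.42, 1.93 and 1.54 CPM and KCNQ3 1.41, 1.17, 1.21 and 1.72 CPM. Plain CPM took KCNQ3 below the threshold. No count was found for 14 of the 30, among them KCNA5, KCNC1, KCNQ1 and KCNH2, the last being the hERG pore of the heart. Over all named rows 11.8% had no count.

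KCNMA1, which encodes the large-conductance calcium-activated pore that KCNMB4 serves, missed the threshold in library 2. It measured 6.14, 0.617, 5.84 and 5.61 CPM, or 135, 10, 130 and 124 counts. Libraries 1, 3 and 4 lay within 1 CPM of each other, and library 2 was 9.505-fold lower, the reverse of KCNMB4. The intermediate-conductance pore KCNN4, of endothelium, blood cells and activated fibroblasts, measured 1.73, 3.08, 1.12 and 1.04 CPM, and the small-conductance KCNN3 1.05, 2.96, 2.34 and 2.35 CPM. Library 2 was the highest for both under TMM, and for KCNN3 it was not under plain CPM. KCNT2, a sodium-activated pore, measured 14.7, 4.19, 16.8 and 12.4 CPM. The beta subunit KCNMB3 measured 0.455, 2.22, 0.899 and 2.804 CPM, on 10, 36, 20 and 62 counts, a spread in which libraries 2 and 4 were high.

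Inward rectifiers and two-pore leak channels, which set the resting potential, were expressed in few cases. Of 8 measured KCNJ genes only KCNJ14 was expressed (12.5%, against 64.2% of all named rows) and 2 had no count. Under TMM, KCNJ14 measured 2.41, 2.41, 2.47 and 2.53 CPM, or 53, 39, 55 and 56 counts (2.46 ± 0.0595 CPM, SD, n = 4). Its coefficient of variation (CV, the SD over the mean) was the lowest of the 55 members. The exact Poisson limits over the 4 libraries, set as for TMEM63C, were 2.13 and 2.82 CPM, wider than the range of the libraries. The low CV therefore does not show a steady level. Under plain CPM the gap test set library 2 apart for KCNJ14, on the low side. The span of KCNJ14 overlaps that of GRWD1. KCNJ10, the Kir4.1 channel of glia, measured 0.773, 0.679, 1.48 and 0.995 CPM. Of 10 measured KCNK genes, KCNK2 and KCNK1 were expressed (20%), KCNK1 at 4.05, 4.63, 4.403 and 3.799 CPM, and 6 had no count. The share without a count was 11.8% over all named rows. Among the smaller auxiliary genes, KCNAB2 measured 8.42, 12.2, 13.2 and 6.78 CPM, KCNE4 6.69, 2.41, 5.39 and 6.24 CPM and KCNIP4 2.09, 3.15, 2.74 and 2.17 CPM, with KCNE4 lowest in library 2.

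**Figure D3:**
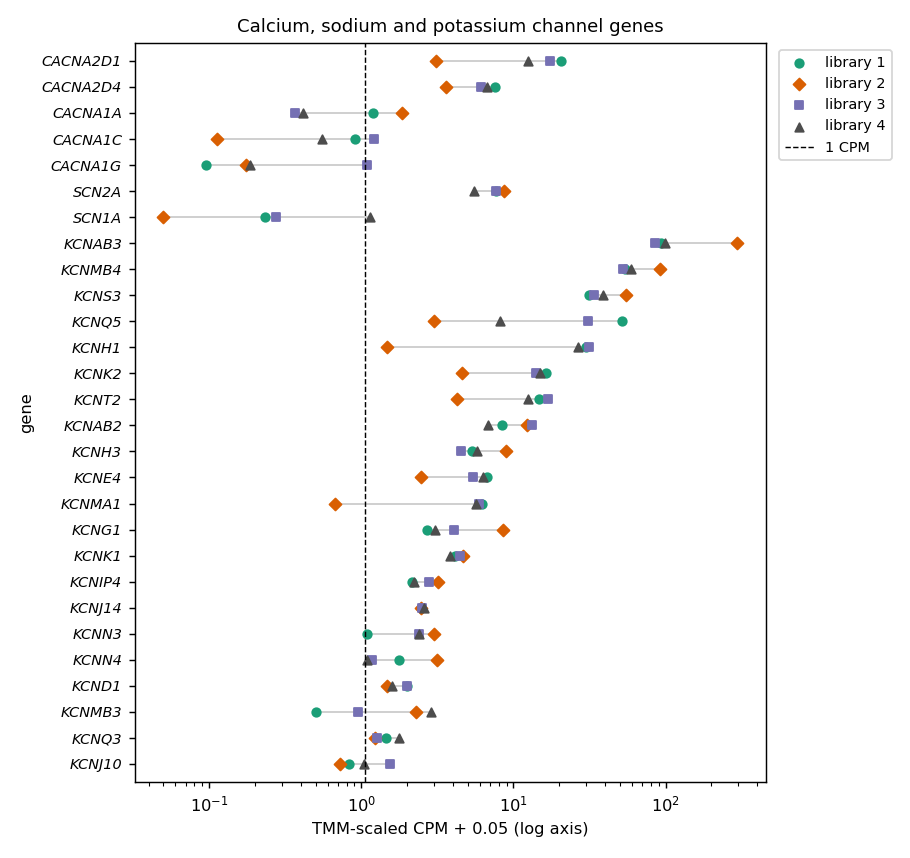
Single libraries are plotted as points, in TMM-scaled CPM + 0.05 on a log x axis, for the reported CACNA, SCN and KCN genes that reached 1 CPM in at least 1 library, and grey lines span the 4 libraries. KCNAB3, KCNMB4 and KCNS3 are highest in library 2, KCNH1 and KCNMA1 lowest, and KCNQ5 is spread across all 4.

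Lists of channel genes known from particular tissues were set beside these levels, with 64.2% of named rows as the reference share. Of 8 calcium entry and flow-sensing genes studied in endothelium 5 were expressed, PKD2, PIEZO1, PKD1 and TRPC1 among them, while TRPV4 and TRPC6 passed in some libraries and TRPC4 in none. Of the 4 measured potassium channel genes studied in endothelium, KCNN3 and KCNN4 were expressed, KCNMA1 missed the threshold in library 2 and KCNA5 had no count. The smooth muscle and pericyte list had 1 of 8 expressed, beside 5 of 6 smooth muscle markers, whose part in it was not tested. The neuronal excitability list had 2 of 13, SCN2A and KCNQ3, and the cardiac and skeletal muscle list 1 of 7, ANO5. Retinal pigment epithelium channels had 2 of 4, BEST1 and CLCN2, and retinal neuron and glia channels 2 of 6, CACNA2D4 and KCNJ14. Genes of endosomal, lysosomal and Golgi membranes had 7 of 9 expressed, with CLCN4 and CLCN5 as the exceptions, and volume-regulated and osmosensitive genes 8 of 10, with TRPV4 and TMEM63C as the exceptions.

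Partner genes outside the name rule gave the setting in which these members are found. Of 17 measured genes of store-operated entry and intracellular calcium release 14 were expressed (82.4%, against 64.2% of all named rows). Among them were the store sensor STIM1 at 38.9, 32.4, 39.7 and 38.5 CPM, its pore ORAI1 at 6.87, 14.8, 7.098 and 7.24 CPM and the inositol trisphosphate receptor ITPR3 at 37.4, 13.02, 33.6 and 33.9 CPM. The cardiac and brain ryanodine receptors RYR2 and RYR3 passed in some libraries only. OSTM1, the partner of CLCN7 in lysosomes, measured 41.3, 18.1, 42.01 and 37.6 CPM, and the calcium channel beta subunit CACNB3 55.5, 67.1, 56.1 and 48.5 CPM. In all, 7 of 23 measured beta subunits and regulators were expressed (30.4%, against 64.2% of all named rows). NALCN, the sodium leak pore, measured 44.2, 19.1, 41.1 and 39.1 CPM, while its accessory genes UNC79 and UNC80 measured 0.06797 ± 0.0866 CPM and 0.0842 ± 0.116 CPM. MDFIC, which binds PIEZO1 as a modulator, measured 13.5, 1.11, 13.9 and 11.3 CPM. Under TMM the library 2 value of MDFIC was far below the others, and that of PIEZO1 was 1.25-fold below.

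Among other cation channel families 6 of 30 measured genes were expressed (20%, against 64.2% of all named rows). They were led by count by TMEM87A at 128, 61.6, 133 and 115 CPM, ASIC1 at 24.4, 30.04, 27.05 and 20.8 CPM and TMEM175 at 11.9, 16.3, 12.2 and 9.68 CPM. The anion channel and large-pore list had 13 of 21 expressed (61.9%), near the 64.2% of all named rows. Its upper members by count were the gap junction gene GJA1 at 546, 327, 588 and 535 CPM, the mitochondrial porin VDAC2 at 296, 642, 319 and 331 CPM and CLIC4 at 319.5, 54.5, 334 and 285 CPM. CFTR, the epithelial chloride channel, was not among the expressed.

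Library 2 carried lower levels of many members at once. Of the 55 members with a mean of at least 1 CPM, it lay below all other libraries in 32 (58.2%) and above all in 16 (29.1%), against 48.0% and 43.8% of the 12453 rows at that level. With plain CPM the split was 38 below and 9 above among 56 members, and 7453 below and 3903 above among 12447 rows. A difference of 1 log2 unit or more between library 2 and the mean of the others was found downward in 23 members and upward in 3 (41.8% and 5.45%), against 26.9% and 19.3% of all rows. The median difference was -0.74 log2 units over the 55 members and -0.067 over all rows at that level. With plain CPM these medians were -0.91 and -0.49. The gap test set library 2 apart in 8 members, low for LRRC8D, PIEZO1, ANO5, KCNH1, PKD1, LRRC8E and KCNMA1 (12.7%) and high for KCNAB3 (1.82%), against 11.2% low and 21.8% high of all rows. Libraries 1, 3 and 4 were apart for no member and for 0.779% of rows under TMM. With DESeq2 size factors ANO5 was no longer apart and KCNMB4 was, on the high side, and with plain CPM library 1 was apart for KCNN3. On the log2 scale the same test set library 2 low in 11 members and high in 1, against 21.5% low and 14.7% high of all rows.

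**Figure D4:**
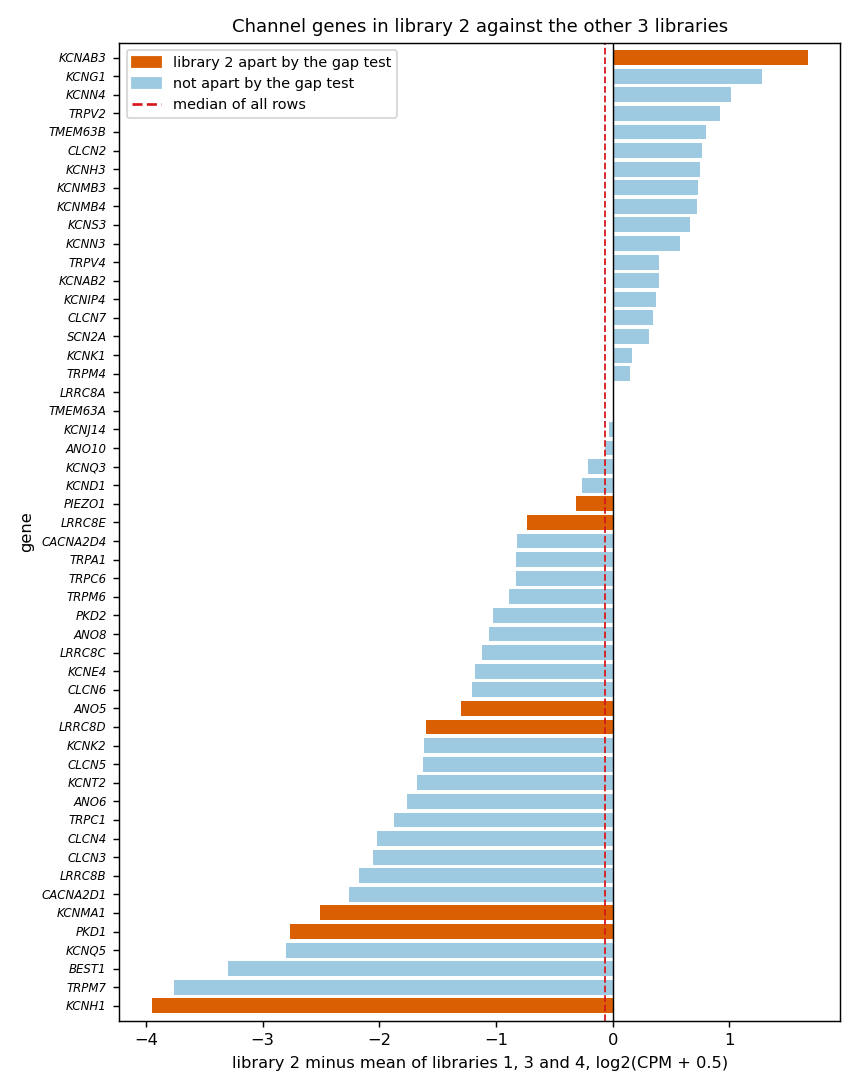
Bars give, for the reported members with a mean of at least 1 CPM, library 2 minus the mean of libraries 1, 3 and 4 in log2(CPM + 0.5), with members set apart by the gap test in orange and the median of all rows as a dashed line. KCNH1, TRPM7 and BEST1 are lowest, KCNAB3, KCNG1 and KCNN4 highest, and LRRC8A lies near 0.

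The members that were high in library 2 were few. KCNAB3, KCNG1 and KCNN4 were higher there by 1 log2 unit or more. KCNG1, a silent Kv subunit, measured 2.64, 8.45, 4.04 and 2.98 CPM and was 2.62-fold higher in library 2 than the mean of the others. The members highest in library 2 numbered 16 under TMM, and 7 of them (CLCN7, SCN2A, TRPV2, KCNK1, KCNIP4, KCNN3 and TRPV4) were not highest there under plain CPM. The other 9 were highest there under each of the 3 scalings, among them KCNAB3, KCNMB4, KCNS3, TMEM63B, CLCN2, KCNH3, KCNG1 and KCNN4. The ribosomal share and the composition of library 2 moved with these differences, and their part in them was not tested.

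Without library 2 the members were closer between libraries than with it, but their median spread stayed above that of all rows. The median CV over the 55 members was 37.1% with 4 libraries and 12.3% without library 2, against 35.1% and 8.85% over all rows with a mean of at least 1 CPM. Members and rows were not matched for level beyond that minimum, and the part of counting error in these medians was not tested. Under TMM, LRRC8A, ANO10, KCNK1 and KCNJ14 had a CV under 10% over the 4 libraries. The exact Poisson limits of KCNK1, 3.76 and 4.66 CPM, were wider than the range of its libraries, as for KCNJ14. The low CV of KCNK1 therefore does not show a steady level. Plain CPM gave all 4 genes wider spreads. LRRC8A was then at 89.4 ± 13.8 CPM, ANO10 at 53.97 ± 9.45 CPM, KCNK1 at 4.23 ± 0.467 CPM and KCNJ14 at 2.48 ± 0.384 CPM (SD, n = 4). In contrast, 9 members had a CV over 30% among libraries 1, 3 and 4: KCNMB3 (90.1%), KCNQ5 (72.4%), BEST1 (42.2%), TRPV2, KCNN3, CLCN6, KCNAB2, TMEM63A and TRPM4. For the last 3 of these the CV was under 30% with library 2 included. The share of all rows with a CV over 30% was not computed. Leaving out library 2 and scaling the other 3 again raised the number of expressed members from 47 to 53, with CLCN4, CLCN5, KCNMA1, TRPC6 and TRPM6 among those added. Since a call needs 1 CPM in every library, leaving 1 out can hardly lower the number. It was 48 without library 1, 47 without library 3 and 47 without library 4. The same change over all named rows was not computed.

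Related genes were also set against each other within each library, as the difference in log2(CPM + 0.5). Since no length enters, the size and sign of such a difference mix length with level, and what can be read from it is how it changed from library to library. Of 14 pairs 12 were measured (PIEZO2 and KCNK6 had no named row), and 8 kept 1 direction in all 4 libraries. These 8 had an exact sign-flip permutation p = 0.125 (two-sided, the smallest that 4 libraries allow) and an adjusted p = 0.188, so no pair passed a threshold of 0.05 and this design could not have let one pass.

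LRRC8A against its partner LRRC8D differed by -0.24, 1.41, -0.19 and -0.21 log2 units in libraries 1 to 4, negative in 3 libraries and positive in library 2. CLCN7 against CLCN3 went from -1.43 to -0.88 in libraries 1, 3 and 4 and to 1.17 in library 2. KCNMA1 against KCNN4 gave 1.58, -1.68, 1.97 and 1.99, again with library 2 reversed. TRPM7 exceeded TRPM4 by 3.59 to 4.45 in those 3 libraries and by 0.064 in library 2. PKD1 lay -2.46, -4.25, -2.64 and -2.43 from PKD2, and the difference was widest in library 2. TMEM63B against TMEM63A (1.40 ± 0.50, SD, n = 4), LRRC8A against LRRC8C (1.29 ± 0.58), TRPC1 against TRPC6 (2.14 ± 0.56), TRPV4 against TRPV2 (-1.40 ± 0.40), and CACNA2D1 against CACNA1C (3.42 ± 0.56) kept their sign in 4 of 4 libraries. ANO6 against ANO1 did so too, and since ANO1 had no count its 9.15 ± 0.90 depends on the pseudocount. CACNA1C and CACNA1H differed by less than their spread, at 0.048 ± 0.84.

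**Figure D5:**
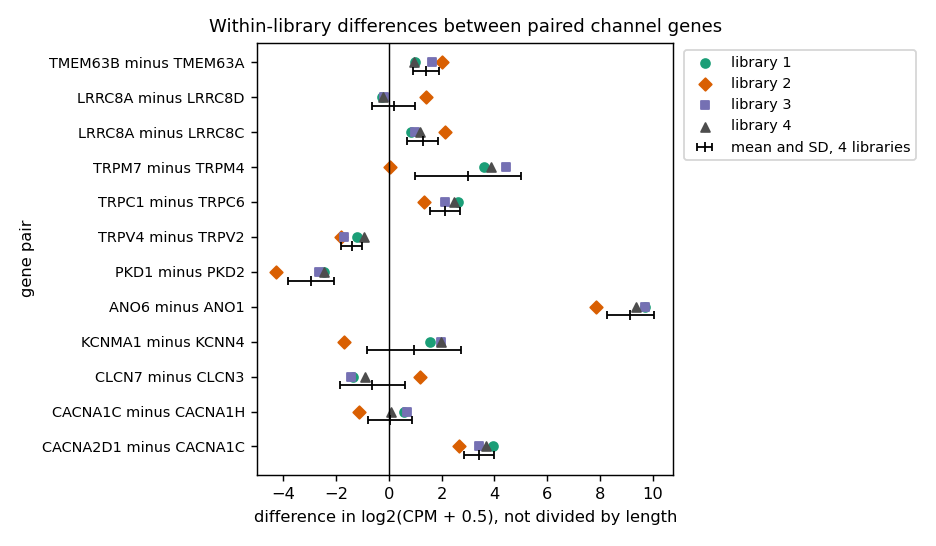
Points give the difference in log2(CPM + 0.5) between 2 related genes within each library for the 12 measured pairs (x axis, not divided by length), with the mean over the 4 libraries and its SD in black. Library 2 falls on the other side of 0 for LRRC8A minus LRRC8D, KCNMA1 minus KCNN4, CLCN7 minus CLCN3 and CACNA1C minus CACNA1H.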

How the data were processed

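Estimated counts for Ensembl rhesus genes, as whole numbers, were deposited by the authors for 4 RF/6A libraries. Salmon and DESeq2 are named, without versions or roles, per the submitters' processing notes. The sources used here do not give build, annotation, strandedness or read length. Quantification by Salmon shares reads among similar transcripts, an error that counting limits do not cover. Symbols came from a table of Ensembl identifiers (14654 of 21314 rows matched), and 6660 rows stayed unnamed, holding 13.1% to 21.7% of counts.

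CPM were computed with edgeR 4.0.16 (R 4.3.3) and its TMM scaling. The TMM factor was 0.793 for library 2 and 1.08 to 1.09 for libraries 1, 3 and 4. The gap test was Dixon's, applied to members with a mean of at least 1 CPM. A log2 value uses a pseudocount of 0.5 CPM. Paired differences went through an exact permutation test that flips signs (two-sided, 4 libraries), with Benjamini-Hochberg adjustment over 12 pairs. Division by coding length was planned and not done, since no lengths were used. The code was tested on simulated data. Alternatives were plain CPM, DESeq2 1.42.0 size factors, other thresholds and pseudocounts, and leaving out each library.

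Members and lists were chosen with earlier results of these data known. Genes named were the 3 highest by count of each family and list, every PIEZO, TMEM63, LRRC8, PKD, BEST and TRP member, the genes of the pairs and members set apart by the gap test, and a few members are counted but not reported by name here. Counts of members by their library 2 value, and the other genes named, were chosen after the values were seen.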

Additional observations from a re-analysis of the deposited data

Results flagged for a closer look

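Dixon's test was run on 67 values (55 member levels and 12 pair differences), and set a single library apart in 11 of them. Chance alone does so in about 1 of 20 groups. Over all rows with a mean of at least 1 CPM a library stood apart in 4214 of 12453, and over members in 8 of 55. The flags are therefore not particular to the channel genes. In all 11 flagged values the library apart was library 2, and values that share a library are not independent.

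In library 2, LRRC8D (33.4 CPM), PIEZO1 (49.6 CPM), ANO5 (11.8 CPM), KCNH1 (1.42 CPM), PKD1 (1.73 CPM), LRRC8E (7.34 CPM) and KCNMA1 (0.617 CPM) were lower than in the others. KCNAB3 (295 CPM) was higher. Among pair differences, LRRC8A against LRRC8D reached 1.41 log2 units there, PKD1 against PKD2 -4.25 and KCNMA1 against KCNN4 -1.68.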

How the results depend on the processing

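Scaling, thresholds and the filter kept the number of expressed members within 1.5 times of 47: 46 with plain CPM, 48 with DESeq2 size factors, 54 at 0.5 CPM, 37 at 2 CPM, 55 by the mean and 56 by filterByExpr (minimum count 10). Leaving out 1 library gave 47 to 53. Members highest in library 2 numbered 9 with plain CPM against 16, and those higher there by 1 log2 unit or more numbered 1 against 3. Members with a library apart were 12 with plain CPM (in 1 of them, KCNN3, it was library 1, on the low side), 12 on the log2 scale and 8 with DESeq2 size factors, against 8. The common dispersion of edgeR, as a coefficient of variation, was 45.1% and ranged from 13.6% without library 2 to 52.3% without library 4. LRRC8A against LRRC8D ranged from -0.21 log2 units without library 2 to 0.34 without library 1. CACNA1C against CACNA1H reached 0.46 without library 2 and turned to -0.13 without library 1, -0.16 without library 3 and -0.089 with a pseudocount of 0.1 CPM, and the cause was not tested. No paired comparison between groups of samples was possible because the labels give a single group. Members under 1 CPM rest on few counts, and a count of 3 in 1 library equals 0.135 to 0.185 CPM.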
